A study of Mus musculus with 8 samples.

Results

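Glycolysis breaks glucose down to pyruvate and lactate, and its enzymes and transporters are the subject here: 35 genes, chosen by symbol from the 24303 genes of the deposited RNA-Seq table. The 35 members cover 18 steps, from glucose uptake through the enzymes of the pathway to lactate export, with the E1 subunits of pyruvate dehydrogenase and a pair of its kinases. All 35 were found in the table, and each reached 50 normalized counts or more in some library.

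The libraries came from P14 CD8+ T cells, whose transgenic receptor recognizes the LCMV peptide GP33 and which were taken from spleens of male or female mice. All cells were activated for 2 days on plates coated with anti-CD3 and anti-CD28, then grown in medium with human IL-2 and IL-15, and viable CD8+ cells were sorted before poly(A)-selected RNA was sequenced. Effector cells were collected on day 7, and the labels do not give their peptide schedule. Acute-2d cells received no peptide after activation, Acute-7d cells received GP33 until day 7 and none afterwards, and T_Dysf cells received GP33 repeatedly until day 19 together with TGF-β1 from day 7. These 3 conditions were collected on day 19. T_Dysf and Acute-7d therefore differed in peptide and in TGF-β1 together, and the parts of these 2 agents cannot be told apart.

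Each of the 4 conditions had 2 libraries. By the worth of 1 read, the libraries held between 19381799 (Acute-7d replicate 1) and 24856512 (T_Dysf replicate 1) reads on genes. Levels are normalized counts, which are estimated reads per gene divided by the size factor of the library. A floor of 3 reads corresponded to between 2.59 and 3.35 normalized counts and covers counting error only, and of the members only Aldoart2 reached it, in T_Dysf replicate 1. The series calls the libraries of a condition biological replicates without saying whether they were separate cultures or animals, so p-values measure only the spread between these libraries. A prefix, RESUB, stood in the names of Effector replicates 1 and 2 and of Acute-7d replicate 1. Its meaning is not given in the labels, and in the Effector condition it cannot be told apart from the condition itself. A term for the prefix in the fit, used below, is therefore estimated only from the difference between the 2 Acute-7d libraries.

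In glycolysis, glucose is taken up by facilitative transporters, trapped by phosphorylation and split into triose phosphates, which are then oxidized to pyruvate with a net gain of ATP. Pyruvate is either reduced to lactate and exported together with a proton or enters mitochondria, where the pyruvate dehydrogenase complex makes acetyl-CoA. Activated T cells are known for a high rate of glycolysis with lactate release, whereas resting memory T cells rely more on mitochondrial oxidation.

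Together the 35 members took 1.16% and 1.05% (Effector), 1.29% and 1.62% (Acute-2d), 0.958% and 0.934% (Acute-7d), and 0.479% and 0.446% (T_Dysf) of all normalized counts. The lowest shares were those of both T_Dysf libraries and the highest those of both Acute-2d libraries. Reads in the pseudogene copies described below are left out of these shares. For Gapdh, the member with the most copies, they held 46933 normalized counts in Effector replicate 1 and 11979 in T_Dysf replicate 1. For 23 of the 35 members (65.7%), both T_Dysf libraries were below the other 6 libraries, compared with 11.95% of all genes. Both T_Dysf libraries were above the other 6 for 2 members (5.71%), Bpgm and Pdk2, compared with 11.6% of all genes. By condition mean, T_Dysf was the lowest of the 4 conditions for 25 members (71.4%, against 28.75% of all genes with a value) and Acute-2d the highest for 22 (62.9%, against 24.1%). In sorted bulk samples, fewer cells with a high level of a transcript and less of it per cell cannot be told apart.

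**Figure D1:**
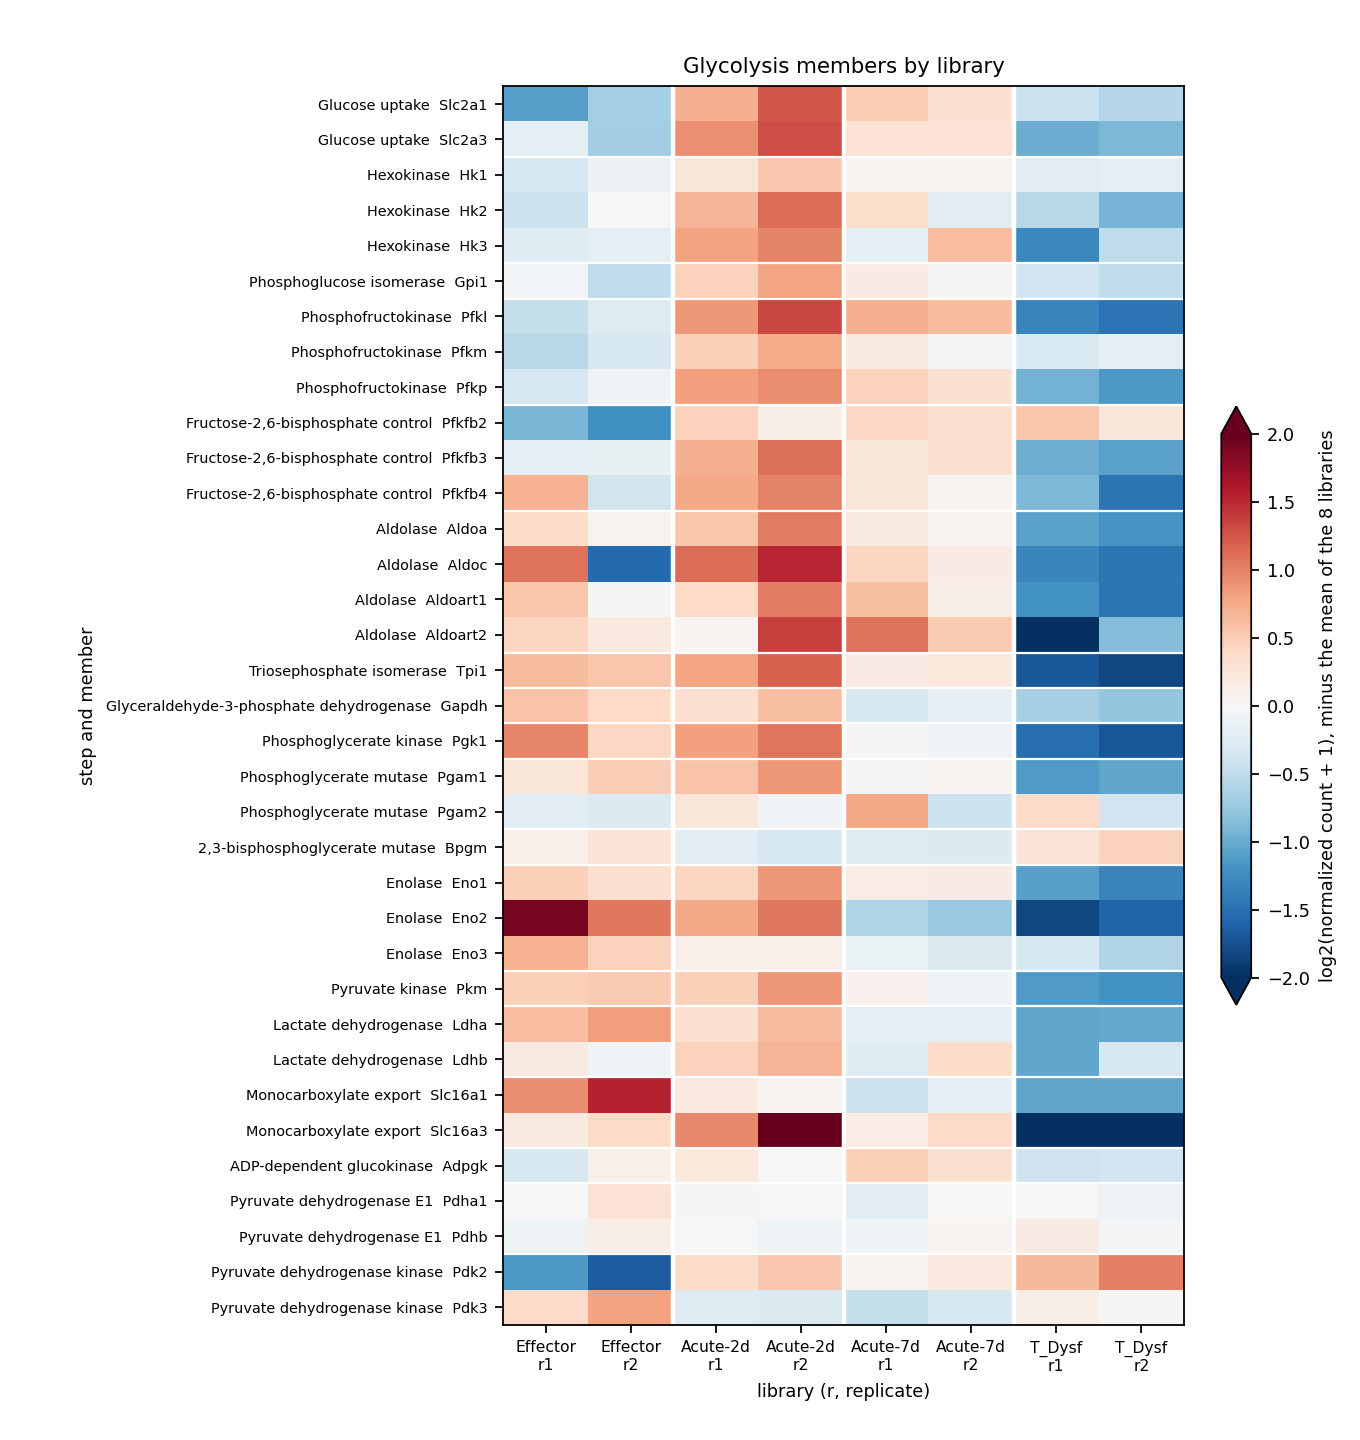
Heat map of the 35 members, grouped by step, in the 8 libraries. Color gives log2(normalized count + 1) of a library minus the mean of the member over the 8 libraries, and most members are blue in both T_Dysf libraries and red in both Acute-2d libraries.

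Some libraries stood apart within their condition. Acute-2d replicate 2 exceeded replicate 1 in 24 of the 32 members with a mean of at least 50, and the median difference was 0.28 on the log2 scale, compared with 0.04 over 12028 genes filtered in the same way. The 2 Effector libraries differed most in Aldoc, which had 2515 normalized counts in replicate 1 and 403 in replicate 2.

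The sorted cells carried the transcripts of CD8 T cells. All 8 CD8 T cell markers were in the table, Thy1 was the most abundant of them, and their summed level was 83779.8 and 85328 normalized counts in Effector, 99360.2 and 100646 in Acute-2d, 101201 and 99134 in Acute-7d, and 190662 and 192064 in T_Dysf. This sum was higher in both T_Dysf libraries than in the other 6, and it did not follow the members. In T_Dysf against Acute-7d, limma called Cd3g (log2 fold change 1.27), Thy1 (1.23) and Cd3e (1.08) higher and Cd2 (-1.31) lower. Cd4 stood between 1.01 and 13.0 normalized counts, at or near the floor outside Effector replicate 2. Markers of other cells were low by comparison. The 3 NK cell markers, all in the table and led by Eomes, summed to 2454 and 1794 normalized counts in Effector, 1770.4 and 1545 in Acute-2d, 4545 and 3560.3 in Acute-7d, and 1073 and 1748 in T_Dysf. Acute-7d was highest, and in T_Dysf against Acute-7d all 3 were lower at an unadjusted p under 0.05 and limma called Ncr1 lower, at the floor in both T_Dysf libraries. Summed levels were between 55.8 and 178 normalized counts for 5 of 5 B cell markers, of which Cd79b, the most abundant, was called higher by limma in T_Dysf against Acute-7d (1.84). For 7 of 9 myeloid markers the sums were between 272 and 661 (Lyz2 the most abundant), and for 7 of 8 erythroid markers between 49.8 and 115 (Hba-a2). The 3 CD4 T cell markers summed to between 14.6 and 52.8 (Foxp3), 1 of 4 platelet markers, Itga2b, reached between 22.2 and 81.0, and 2 of 5 muscle markers summed to between 7.48 and 41.3 (Acta1). Of the dendritic cell markers 4 of 5 were in the table, and their sum, led by Itgax, was 1224 and 410.3 normalized counts in Effector, 581 and 721 in Acute-2d, 1059 and 1463 in Acute-7d, and 3729.5 and 3532 in T_Dysf. Itgax carried the difference, with a mean of 888 in Acute-7d and 3259 in T_Dysf, while the means of Xcr1 (342 and 345) and Zbtb46 (29.5 and 25.7) were close, the list median was -0.10 on the log2 scale and limma called 0 of the 4 (1 higher at an unadjusted p under 0.05). The part of these markers in the results on glycolysis was not tested.

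Proliferation genes also differed between the conditions. Their summed level over 8 genes, with Mki67 the most abundant, was 42786 and 76904 normalized counts in Effector, 10043 and 7269 in Acute-2d, 4283 and 11066 in Acute-7d, and 23099.6 and 20966 in T_Dysf. Effector libraries were highest and T_Dysf libraries stood above the 4 Acute-2d and Acute-7d libraries, an order that differed from that of the glycolysis members. Its part in the results was not tested.

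The comparison of T_Dysf with Acute-7d asks how cells kept on antigen with TGF-β1 differ from cells rested after day 7. Differences were tested with limma on log2(normalized count + 1) over all 24303 genes, with 4 residual degrees of freedom, and a member was called when its Benjamini-Hochberg adjusted p was under 0.05 and its fold change at least 2. Of the 35 members, 12 fell in T_Dysf (34.3%), where 3.03% of all genes were called lower. No member was called higher by limma, where 2.54% of all genes were called higher, and 3 members were higher and 23 lower at an unadjusted p under 0.05 (13.2% and 12.9% of all genes). The members that fell were Slc2a3, Pfkl, Pfkp, Pfkfb3, Aldoa, Aldoart1, Tpi1, Pgk1, Pgam1, Eno1, Pkm and Slc16a3. The median log2 fold change of the members was -0.90, compared with 0 over all genes, and 29 of the 35 were below 0, with Pfkfb2 and Pdha1 among the 6 above 0 but below it after scaling to equal 75th percentiles. Among the 13175 genes with a maximum of at least 50, which include all members, 13 members were called lower and 0 higher by limma (26 in either direction at an unadjusted p under 0.05), beside 6.69% and 6.31% of these genes.

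By stage of the pathway, 7 of the 18 members from uptake to triose phosphates fell (median log2 fold change -1.23), 4 of the 9 from glyceraldehyde 3-phosphate to pyruvate (median -1.04), and 1 of the 4 for lactate and its export (median -0.79). None of the 4 members of the pyruvate dehydrogenase group was called by limma, with 2 higher at an unadjusted p under 0.05 and a median of 0.29. Differences between the stages were not tested.

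These calls rested on few libraries. The count of 12 became 2 without Acute-7d replicate 1, 3 without Acute-7d replicate 2, 3 without T_Dysf replicate 1, 5 without T_Dysf replicate 2 and 2 with a term for the RESUB libraries, and a condition left with 1 library was assumed to vary like the others. In these settings, in the same order, 1.40%, 1.45%, 0.905%, 4.46% and 1.41% of all genes were called lower. Without T_Dysf replicate 2, more of all genes were therefore called lower and fewer of the members. Tpi1 and Pfkl kept their call in all 17 alternative settings, with limma adjusted p between 0.00031 and 0.0343 for Tpi1 and between 0.000437 and 0.0470 for Pfkl. Pfkp kept it in 15, Pfkfb3 and Pgam1 in 13, Pgk1, Eno1 and Slc16a3 in 12, Aldoa and Pkm in 11, Slc2a3 in 9 and Aldoart1 in 6.

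**Figure D2:**
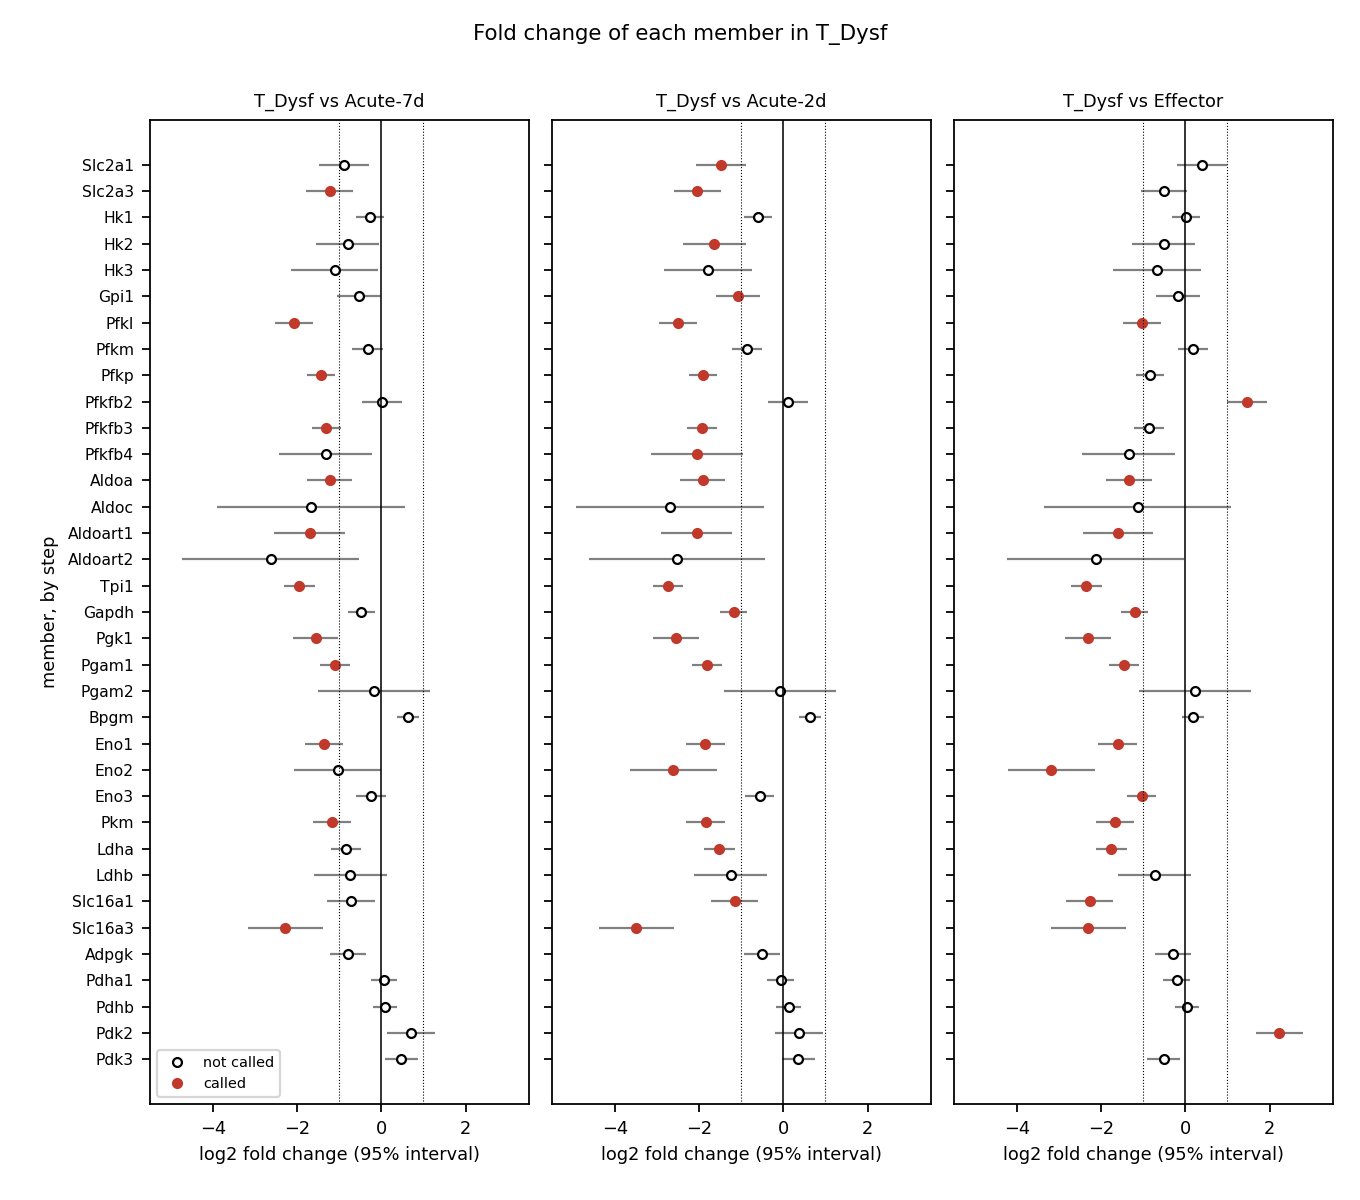
Log2 fold change of each member in T_Dysf, from left to right relative to Acute-7d, to Acute-2d and to Effector (horizontal axis), with 95% intervals from limma as lines and called members as filled points. Dotted lines mark a fold change of 2, and the called members lie left of the lower line except for Pfkfb2 and Pdk2 against Effector.

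Promoters are shown for the 4 called members with the largest falls that had an entry in the RefSeq promoter table (Slc16a3, Pfkl, Tpi1 and Pgk1), and for Ldha and Slc16a1, whose highest mean was in Effector, all chosen after their values were seen. For Ldha, the first of its promoters in the table is given. The sequences run from 250 bases before to 50 bases after the start, on the strand of the gene, in GRCm38.p6, at chr11:120948817-120949116 (Slc16a3, plus strand), chr10:78009758-78010057 (Pfkl, minus), chr6:124814109-124814408 (Tpi1, minus), chrX:106186850-106187149 (Pgk1, plus), chr7:46845554-46845853 (Ldha, plus) and chr3:104638414-104638713 (Slc16a1, plus). Capitals mark the letters ACGTG or GCGTG on either strand, known as the core of the hypoxia response element. CACGTG, known as the E-box, holds ACGTG on both strands and so counts as 2 overlapping matches.
Slc16a3: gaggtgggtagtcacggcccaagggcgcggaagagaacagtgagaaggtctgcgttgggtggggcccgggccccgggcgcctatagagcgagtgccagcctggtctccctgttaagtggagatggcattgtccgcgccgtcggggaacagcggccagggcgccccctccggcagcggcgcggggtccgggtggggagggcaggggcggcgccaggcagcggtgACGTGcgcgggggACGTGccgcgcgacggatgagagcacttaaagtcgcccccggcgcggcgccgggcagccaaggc
Pfkl: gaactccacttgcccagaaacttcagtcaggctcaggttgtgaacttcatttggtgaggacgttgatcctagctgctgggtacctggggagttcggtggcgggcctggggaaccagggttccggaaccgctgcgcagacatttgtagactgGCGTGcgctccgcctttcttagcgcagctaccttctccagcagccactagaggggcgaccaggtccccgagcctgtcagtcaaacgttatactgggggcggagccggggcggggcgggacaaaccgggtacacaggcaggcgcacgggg
Tpi1: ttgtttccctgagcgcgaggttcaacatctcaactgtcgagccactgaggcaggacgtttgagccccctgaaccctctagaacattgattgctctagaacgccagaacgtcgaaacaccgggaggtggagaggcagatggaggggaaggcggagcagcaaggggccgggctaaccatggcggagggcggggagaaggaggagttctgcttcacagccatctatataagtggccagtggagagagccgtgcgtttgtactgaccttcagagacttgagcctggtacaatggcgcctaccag
Pgk1: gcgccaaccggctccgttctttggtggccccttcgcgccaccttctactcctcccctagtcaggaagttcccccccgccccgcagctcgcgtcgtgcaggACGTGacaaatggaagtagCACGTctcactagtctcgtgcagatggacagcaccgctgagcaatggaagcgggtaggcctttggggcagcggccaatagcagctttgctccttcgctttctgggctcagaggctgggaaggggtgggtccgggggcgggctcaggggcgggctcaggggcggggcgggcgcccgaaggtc
Ldha: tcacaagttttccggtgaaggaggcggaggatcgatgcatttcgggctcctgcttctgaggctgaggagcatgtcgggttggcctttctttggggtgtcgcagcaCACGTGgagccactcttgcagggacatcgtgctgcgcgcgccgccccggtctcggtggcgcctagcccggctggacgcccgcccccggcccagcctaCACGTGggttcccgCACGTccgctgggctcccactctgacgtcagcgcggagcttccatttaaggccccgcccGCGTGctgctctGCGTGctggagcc
Slc16a1: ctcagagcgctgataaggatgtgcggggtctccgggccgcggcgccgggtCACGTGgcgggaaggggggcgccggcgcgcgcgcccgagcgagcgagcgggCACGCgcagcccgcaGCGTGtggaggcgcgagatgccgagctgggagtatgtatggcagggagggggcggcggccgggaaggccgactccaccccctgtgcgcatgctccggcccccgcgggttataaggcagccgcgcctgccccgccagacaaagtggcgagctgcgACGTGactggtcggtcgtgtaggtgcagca
By these letters, Ldha held 7 matches (2 in its other promoter in the table, with CACGTG 0 times), Slc16a1 5, Slc16a3 and Pgk1 2 each, Pfkl 1 and Tpi1 0, and CACGTG stood 2 times in Ldha and 1 time in Slc16a1. Over all 32851 promoters of this length in the table, 43.8% held ACGTG or GCGTG and 7.15% held CACGTG. Promoters were found for 33 of the 35 members, all but Slc2a3 and Aldoart1, and counting the promoter listed first for each gene, 25 of 33 (75.8%) held ACGTG or GCGTG, compared with 56.7% of 13674 genes of the expression table. Median G and C content was 61% for these members and 59% for those genes. A match is a description of the letters and was not tested for binding.

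Glucose uptake was represented by transcripts of Slc2a1 and Slc2a3, which encode the transporters GLUT1 and GLUT3. Slc2a3, the more abundant per kb of exon (mean 1692 normalized counts per kb, against 811 for Slc2a1), stood at 5629 and 3910.4 normalized counts in Effector, 11937 and 15571 in Acute-2d, 7732 and 7735 in Acute-7d, and 3211 and 3406 in T_Dysf. Both T_Dysf libraries were below the other 6, and both Acute-2d libraries above. Here and for the members that follow, tests are given as log2 fold change ± standard error: Slc2a3 fell in T_Dysf against Acute-7d (-1.23 ± 0.214, limma adjusted p = 0.0356) and against Acute-2d (-2.04 ± 0.214, limma adjusted p = 0.00868). Slc2a1 had 1164 and 1545 normalized counts in Effector, 4078 and 5872 in Acute-2d, 3513 and 3058 in Acute-7d, and 1848 and 1673 in T_Dysf, so that here the lowest libraries were the Effector pair. Against Acute-7d its log2 fold change in T_Dysf was -0.90 ± 0.229 (limma adjusted p = 0.0850), short of both thresholds, and in Effector -1.29 ± 0.229 (limma adjusted p = 0.0298). The Slc2a1 part of the per-kb total of both transporters was 41.8% and 38.0% in T_Dysf and between 20.5% and 36.2% in the other 6 libraries.

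Among the genes whose products phosphorylate glucose, Hk1 showed the smallest difference between T_Dysf and Acute-7d. Hk1, the most abundant hexokinase per kb (988 normalized counts per kb), had levels of 4738 and 5609 normalized counts in Effector, 7177 and 8760.5 in Acute-2d, 6232 and 6382 in Acute-7d, and 5161 and 5309 in T_Dysf. The T_Dysf libraries lay within the range of the Effector libraries and below the other 4, and the log2 fold change in T_Dysf was -0.27 ± 0.128 (limma adjusted p = 0.272) against Acute-7d and -0.60 ± 0.128 (limma adjusted p = 0.0494) against Acute-2d, where the fold change was under 2. For Hk2, the inducible isoform, the values were 1368 and 1825 normalized counts in Effector, 2945 and 3999.8 in Acute-2d, 2342 and 1585 in Acute-7d, and 1257 and 971 in T_Dysf. Both T_Dysf libraries were the lowest of the 8, and Hk2 fell against Acute-2d (-1.63 ± 0.292, limma adjusted p = 0.0310) but was not called against Acute-7d (-0.80 ± 0.292, limma adjusted p = 0.171). Hk3 was low throughout, between 19.9 and 100.4 normalized counts. Both its T_Dysf libraries were lowest (log2 fold change -1.11 against Acute-7d, not called). Adpgk, an ADP-dependent glucokinase of the endoplasmic reticulum, stood at 772 and 1041 normalized counts in Effector, 1122 and 972 in Acute-2d, 1349 and 1202 in Acute-7d, and 723 and 743 in T_Dysf, with both T_Dysf libraries lowest and both Acute-7d libraries highest. Its difference between T_Dysf and Acute-7d was -0.80 ± 0.166 (limma adjusted p = 0.0529), just above the adjusted p threshold and also under a fold change of 2.

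Gpi1, which converts glucose 6-phosphate to fructose 6-phosphate, was measured at 20260.2 and 14818 normalized counts in Effector, 28977 and 36414 in Acute-2d, 23388 and 21319.5 in Acute-7d, and 15935 and 14822 in T_Dysf. T_Dysf overlapped Effector and was below the Acute-2d and Acute-7d libraries. The log2 fold change of T_Dysf was -0.54 ± 0.201 (limma adjusted p = 0.179) against Acute-7d, and against Acute-2d Gpi1 fell by 1.08 on the log2 scale (limma adjusted p = 0.0345). That call was kept in 8 of 17 settings and lost without any 1 of the Acute-2d, Acute-7d or T_Dysf libraries.

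Phosphofructokinase, the committed step, carried some of the largest differences. Pfkp, the platelet-type isoform and the most abundant of the 3 per kb (2560.1 normalized counts per kb), had 8084 and 9649 normalized counts in Effector, 18091 and 19408 in Acute-2d, 14098 and 12656 in Acute-7d, and 5313 and 4641 in T_Dysf. Pfkl, the liver-type isoform, had 1925 and 2241 normalized counts in Effector, 4914 and 6774 in Acute-2d, 4377 and 4137 in Acute-7d, and 1064 and 966 in T_Dysf. For both genes the T_Dysf libraries were the lowest, the Effector libraries next, and the Acute-7d and Acute-2d libraries above, with no overlap between these conditions. In T_Dysf against Acute-7d, Pfkl fell by 2.07 on the log2 scale (SE 0.175, limma adjusted p = 0.00688) and Pfkp by 1.43 (SE 0.129, limma adjusted p = 0.00801). Pfkm, the muscle-type isoform, ranged from 366 to 898 normalized counts and its log2 fold change was -0.33 ± 0.140 (limma adjusted p = 0.229). Its T_Dysf libraries were above both Effector libraries and below the Acute-2d and Acute-7d libraries. The part of Pfkm in the per-kb total of the 3 isoforms was 8.15% and 9.83% in T_Dysf and between 3.87% and 4.54% in the other 6 libraries, while that of Pfkl was 17.5% and 17.8% in T_Dysf and between 20.5% and 27.9% elsewhere.

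The Pfkfb genes encode enzymes that make and degrade fructose 2,6-bisphosphate, an activator of phosphofructokinase. Pfkfb3, the most abundant per kb (228 normalized counts per kb), stood at 997 and 1014 normalized counts in Effector, 1838 and 2413 in Acute-2d, 1327 and 1396 in Acute-7d, and 569.7 and 533 in T_Dysf. Its T_Dysf libraries were below all others, and it fell against Acute-7d (-1.30 ± 0.135, limma adjusted p = 0.0110) and Acute-2d (-1.93 ± 0.135, limma adjusted p = 0.00371). Pfkfb2 took another course, with 118 and 95.3 normalized counts in Effector, 309 and 244 in Acute-2d, 299 and 283 in Acute-7d, and 327 and 266 in T_Dysf. Here the Effector libraries were lowest and the 3 conditions of day 19 overlapped, so that the log2 fold change of T_Dysf was 0.02 ± 0.185 (limma adjusted p = 1) against Acute-7d (-0.06 after scaling to equal 75th percentiles), whereas Pfkfb2 rose against Effector (1.47 ± 0.185, limma adjusted p = 0.0126). That last call was lost without T_Dysf replicate 1, with the RESUB term and in a fit of these 2 conditions alone. Pfkfb4 was low, from 19.6 to 111 normalized counts, with T_Dysf lowest (log2 fold change -1.32 ± 0.424, limma adjusted p = 0.135 against Acute-7d). By share of the per-kb total, Pfkfb2 made up 36.9% and 34.1% in T_Dysf and between 8.82% and 18.7% in the other 6 libraries.

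**Figure D3:**
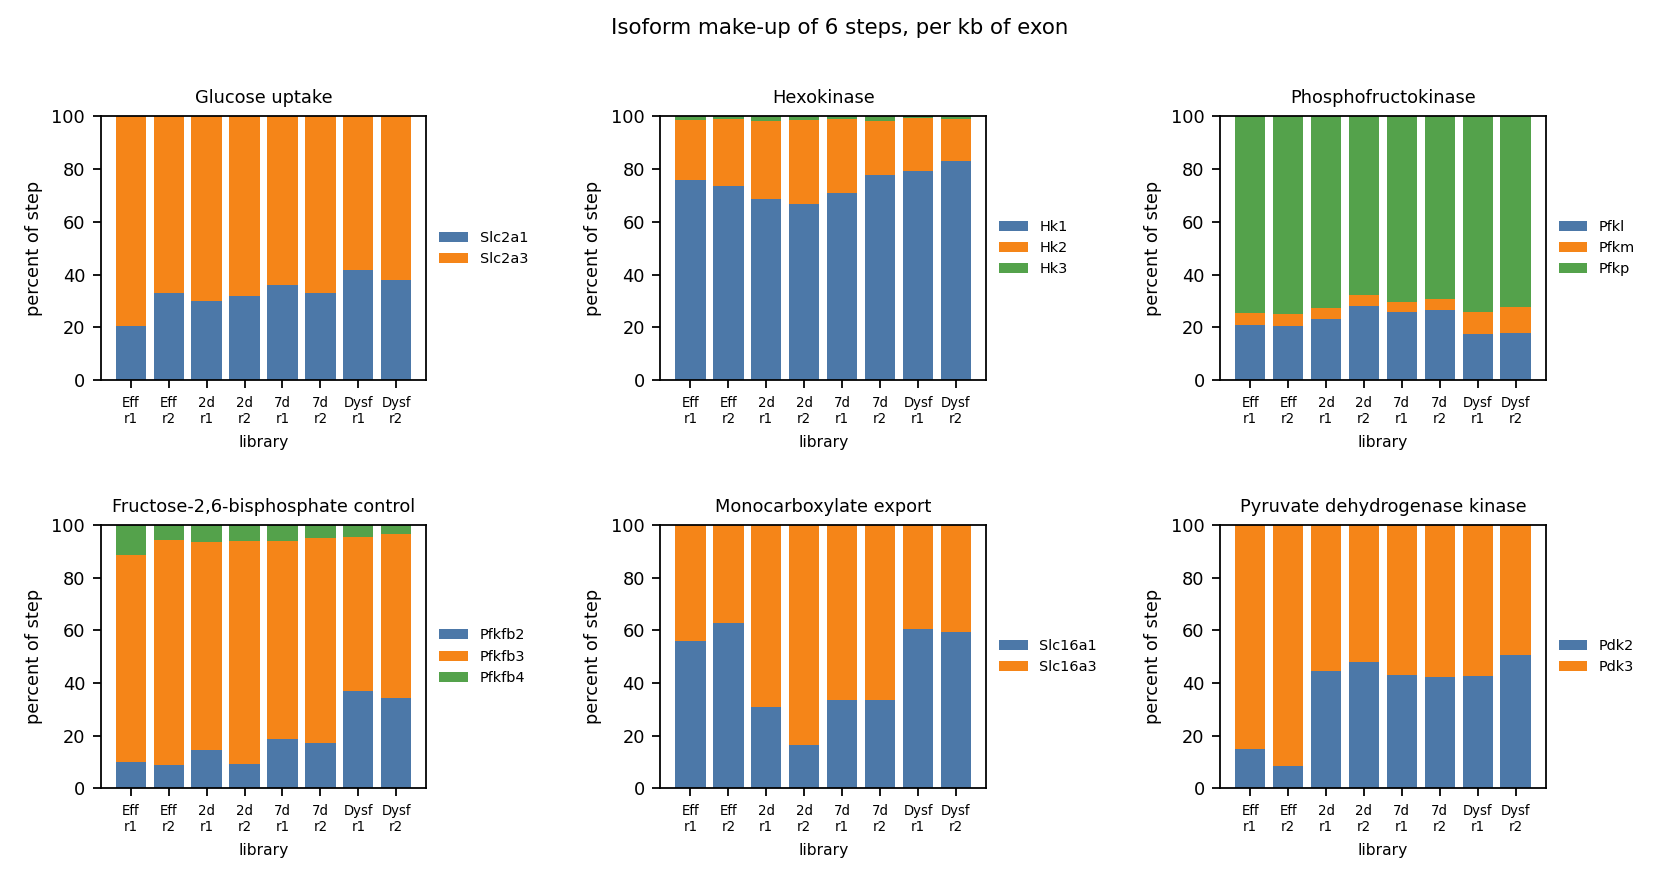
Share of each isoform (percent of the summed normalized count per kb of exon, vertical axis) in 6 steps, 1 bar per library (Eff, Effector; 2d, Acute-2d; 7d, Acute-7d; Dysf, T_Dysf; r, replicate). In T_Dysf the shares of Pfkm and Pfkfb2 are above those of the other 6 libraries, and Slc16a1 makes up most of the export step in Effector and T_Dysf.

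Aldolase splits fructose 1,6-bisphosphate into triose phosphates. Aldoa was the most abundant member of all 35 per kb (12335 normalized counts per kb) when the pseudogene copies described below are left out. With copies added, Gapdh had more normalized counts than Aldoa, for example 55440 against 32717 in Effector replicate 1 and 15598 against 12087 in T_Dysf replicate 1. Aldoa had 32459.5 and 26511 normalized counts in Effector, 37085 and 51899.8 in Acute-2d, 28545 and 25928 in Acute-7d, and 12081 and 11173 in T_Dysf, and between 93.0% and 97.6% of the per-kb total of the 4 aldolase entries. Both T_Dysf libraries were below every other library, and Aldoa fell against Acute-7d (-1.23 ± 0.208, limma adjusted p = 0.0332) and against Effector (-1.34 ± 0.208, limma adjusted p = 0.0196). Aldoart1 and Aldoart2 are retrogene copies of Aldoa, so reads may be divided between these entries and their values are uncertain. Aldoart1 stood at 422 and 279.7 normalized counts in Effector, 380.0 and 584 in Acute-2d, 433 and 313 in Acute-7d, and 123 and 104 in T_Dysf and fell against Acute-7d (-1.70 ± 0.325, limma adjusted p = 0.0443), with T_Dysf again below the other 6 libraries. Aldoart2 reached at most 62.6 normalized counts. For Aldoc, the spread between the Effector replicates left a standard error of 0.860 on its log2 fold change of -1.66 against Acute-7d.

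Tpi1 interconverts the triose phosphates, and it gave the lowest adjusted p of the 35 members in each comparison of T_Dysf. Tpi1 had 12543 and 11912 normalized counts in Effector, 13978 and 18322 in Acute-2d, 9106 and 9442 in Acute-7d, and 2499 and 2309 in T_Dysf. The T_Dysf libraries were far below the other 6, with the Acute-7d pair next and Effector and Acute-2d above. Tpi1 fell by 1.95 on the log2 scale against Acute-7d (SE 0.141, limma adjusted p = 0.00488), by 2.74 against Acute-2d (limma adjusted p = 0.00189) and by 2.35 against Effector (limma adjusted p = 0.00296), and these comparisons share the T_Dysf libraries.

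Summed over the isoforms of a step, the T_Dysf mean was 25.9% of the Acute-7d mean for triosephosphate isomerase, 33.3% for monocarboxylate export, 34.0% for phosphoglycerate kinase, 35.4% for phosphofructokinase and 39.7% for enolase. Intermediate values were found for aldolase (41.9%), pyruvate kinase (44.2%), glucose uptake (46.0%), phosphoglycerate mutase (47.1%), the Pfkfb enzymes (50.9%), lactate dehydrogenase (55.9%) and Adpgk (57.5%). Phosphoglucose isomerase (68.8%), Gapdh (72.1%) and hexokinase (76.5%) were nearest to Acute-7d among the glycolytic steps below it when copies are left out. With its copies added, Gapdh was at 54.7%. By contrast, the summed kinases Pdk2 and Pdk3 (150.0%) and Bpgm (155%) were above Acute-7d. Pdk1, a kinase outside the 35 members, was lower, with means of 5506 in Acute-7d and 850 in T_Dysf. The pyruvate dehydrogenase E1 subunits (105%) overlapped Acute-7d.

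**Figure D4:**
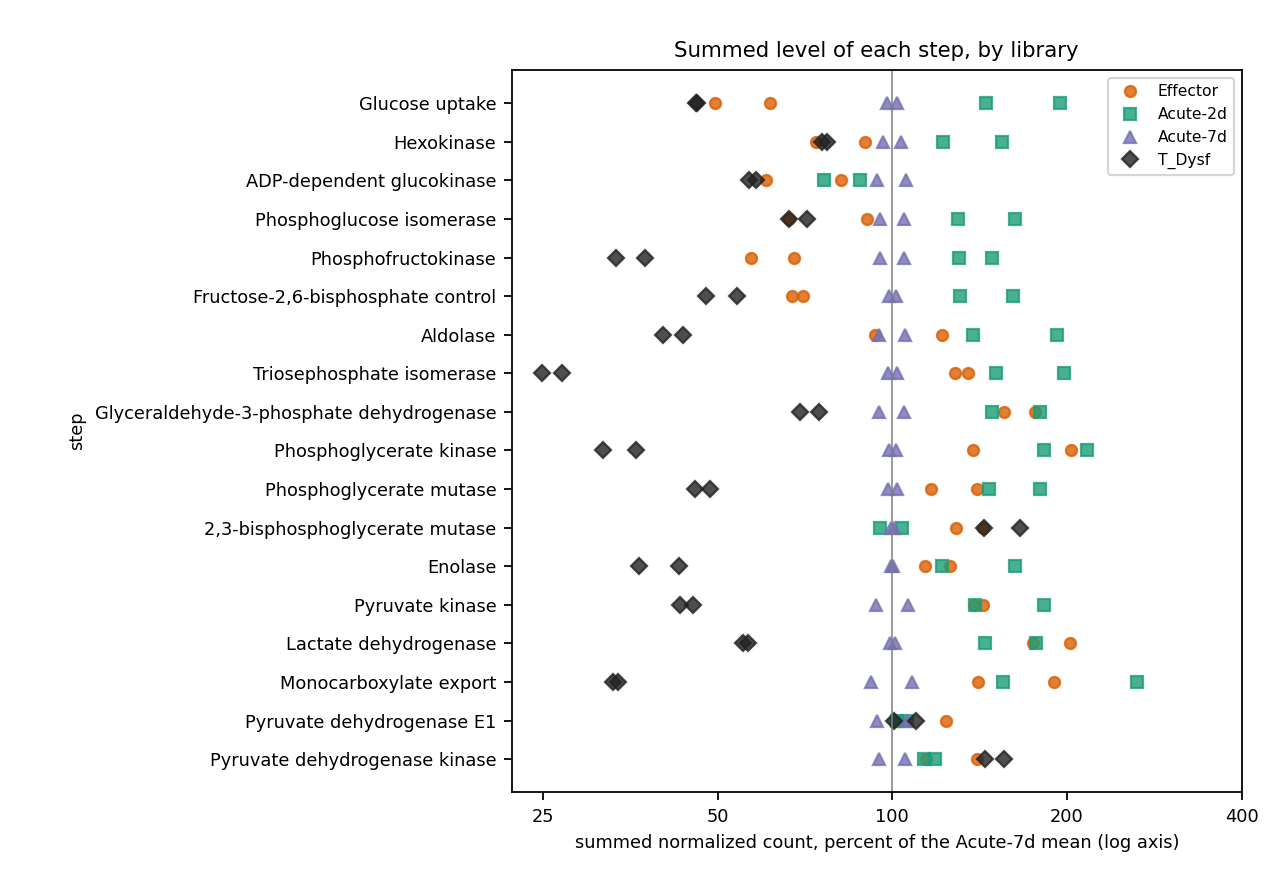
Summed normalized count of each step in each library, as a percentage of the Acute-7d mean of that step (horizontal log axis). T_Dysf (diamonds) lies left of all other libraries in most steps, and right of Acute-7d for Bpgm and the summed kinases Pdk2 and Pdk3. Pdk1 is not part of that sum.

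The glyceraldehyde 3-phosphate stage begins with Gapdh, which makes NADH. Gapdh had 8507 and 7526 normalized counts in Effector, 7186 and 8669.6 in Acute-2d, 4594 and 5070.2 in Acute-7d, and 3619 and 3345 in T_Dysf. T_Dysf was lowest and Acute-7d next, with Effector and Acute-2d overlapping. The log2 fold change of T_Dysf was -0.47 ± 0.125 (limma adjusted p = 0.0920) against Acute-7d, not called, whereas Gapdh fell against Acute-2d (-1.18 ± 0.125, limma adjusted p = 0.00889) and Effector (-1.20 ± 0.125, limma adjusted p = 0.00883). Pgk1, which makes the first ATP of the pathway, had 13464 and 9109.8 normalized counts in Effector, 12103 and 14338 in Acute-2d, 6711 and 6518 in Acute-7d, and 2391 and 2102 in T_Dysf. Its T_Dysf libraries were below the Acute-7d pair and these below the other 4, and Pgk1 fell in T_Dysf against Acute-7d (-1.56 ± 0.210, limma adjusted p = 0.0197), Acute-2d (-2.55 ± 0.210, limma adjusted p = 0.00535) and Effector (-2.30 ± 0.210, limma adjusted p = 0.00672).

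Pgam1 moves the phosphate from carbon 3 to carbon 2 of the glycerate. It stood at 5422 and 6504 normalized counts in Effector, 6812 and 8365 in Acute-2d, 4529 and 4723 in Acute-7d, and 2088 and 2243 in T_Dysf, in the same order of conditions as Pgk1 but with Effector and Acute-2d apart, and fell against Acute-7d (-1.10 ± 0.137, limma adjusted p = 0.0166). Pgam2, the muscle isoform, was between 24.2 and 56.9 normalized counts, and its T_Dysf libraries overlapped each other condition. Bpgm, which makes 2,3-bisphosphoglycerate at a side branch, went the other way, with 440.4 and 489 normalized counts in Effector, 355 and 325 in Acute-2d, 344 and 339 in Acute-7d, and 491 and 568 in T_Dysf. Both T_Dysf libraries were the highest of the 8, and relative to Acute-7d the difference was 0.63 ± 0.101 (limma adjusted p = 0.0295), past the adjusted p but under a fold change of 2.

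Enolase was almost wholly Eno1, at between 95.1% and 98.2% of the per-kb total of the 3 isoforms. Eno1 had 28336 and 25708 normalized counts in Effector, 27654 and 37114 in Acute-2d, 22657 and 22868 in Acute-7d, and 9605 and 8198 in T_Dysf. Both T_Dysf libraries were below the other 6, and Eno1 fell against Acute-7d (-1.36 ± 0.177, limma adjusted p = 0.0181) and Effector (-1.61 ± 0.177, limma adjusted p = 0.00980). Eno2, the neuronal isoform and the least abundant member per kb (8.97 normalized counts per kb), had 80.4 and 44.1 normalized counts in Effector, 35.8 and 44.3 in Acute-2d, 13.4 and 12.1 in Acute-7d, and 5.18 and 6.23 in T_Dysf. T_Dysf was lowest, Acute-7d next, and Effector and Acute-2d were above with overlap. Eno2 rose in Effector against Acute-7d (2.14 ± 0.399, limma adjusted p = 0.0324), a call kept in 6 of 17 settings and lost without any 1 of the 8 libraries. Eno3, the muscle isoform, was between 237 and 578 normalized counts, lowest in T_Dysf and highest in Effector.

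Pyruvate kinase, which makes the second ATP of the pathway, was represented by transcripts of Pkm, whose splice forms M1 and M2 are not separated in gene values. Pkm had 46250.3 and 47989 normalized counts in Effector, 46378 and 61088 in Acute-2d, 35578 and 31331 in Acute-7d, and 15185 and 14405 in T_Dysf. T_Dysf was below Acute-7d and Acute-7d below the other 4 libraries, and Pkm fell against Acute-7d (-1.18 ± 0.175, limma adjusted p = 0.0247) and Effector (-1.67 ± 0.175, limma adjusted p = 0.00883).

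Several of these members have copies of similar sequence in the table, mostly processed pseudogenes, that may take a part of their reads. A match needed at least 85% identity over 50% of the copy's transcript, so not every copy is close enough to be sure of this. Transcript matching found 159 copies for 11 members, 120 of them for Gapdh, and 3 more were added by name, for 162 copies in all. The part of the reads of a member and its copies that lay in the copies was between 84.7% and 86.0% for Gapdh in the Effector, Acute-2d and Acute-7d libraries, and 76.8% and 83.6% in T_Dysf. For Pgk1 it was between 57.5% and 63.5%, for Eno1 between 51.9% and 54.5% in 7 libraries and 38.7% in T_Dysf replicate 1, for Pgam1 between 28.9% and 34.1%, and for Pkm between 14.3% and 15.9% in 7 libraries and 8.23% in T_Dysf replicate 1. Eno1b, a copy of Eno1, had 935 normalized counts in T_Dysf replicate 1 and 3972 in replicate 2, and between 11155 and 16736 in the other 6 libraries. With all matched copies added to their member, an alternative chosen after seeing the data, the number called was the same in each comparison. The log2 fold change of Gapdh in T_Dysf against Acute-7d, again not called, was then -0.88, that of Eno1 -1.56, Pgk1 -1.68 and Pkm -1.25.

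**Figure D5:**
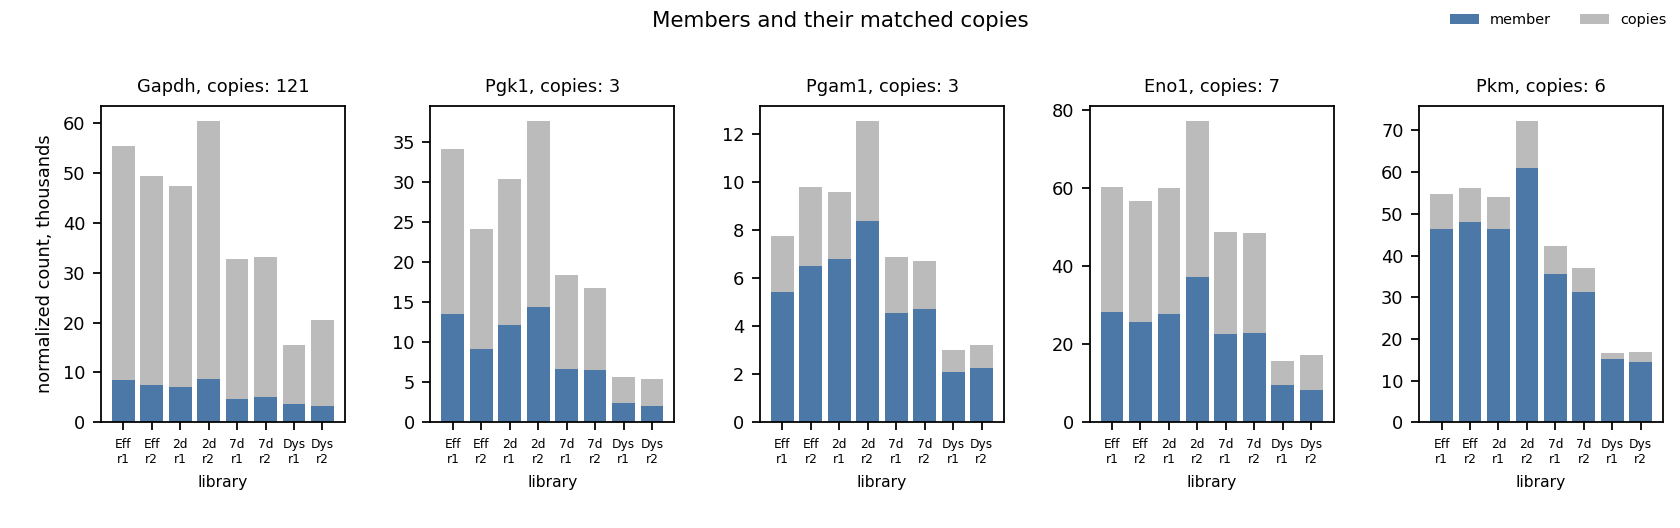
Normalized counts (vertical axis from 0, on the scale written beside it) of 5 members (blue) and of their matched copies (gray) in each library, Eff for Effector, 2d and 7d for Acute-2d and Acute-7d, Dys for T_Dysf. Copies hold the larger part in each library for Gapdh and Pgk1, and the summed bars are lowest in both T_Dysf libraries for each of the 5 members.

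Lactate dehydrogenase was carried by Ldha, at 98.7% or more of the per-kb total of Ldha and Ldhb in each library. Ldha, which reduces pyruvate to lactate, had 35923 and 41632 normalized counts in Effector, 29662 and 36317 in Acute-2d, 20347 and 20688 in Acute-7d, and 11379.9 and 11547 in T_Dysf. T_Dysf was below Acute-7d, and Acute-7d below the other 4 libraries, where Effector and Acute-2d overlapped. The log2 fold change of T_Dysf against Acute-7d was -0.84 ± 0.141 (limma adjusted p = 0.0324), under a fold change of 2, and Ldha fell against Acute-2d (-1.52 ± 0.141, limma adjusted p = 0.00670) and Effector (-1.75 ± 0.141, limma adjusted p = 0.00510). Ldhb was between 56.8 and 189.8 normalized counts.

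Lactate leaves the cell through the monocarboxylate transporters MCT1 (Slc16a1) and MCT4 (Slc16a3). Slc16a3, known as the export form of glycolytic cells, had 1517 and 1737 normalized counts in Effector, 2589.7 and 5287 in Acute-2d, 1477 and 1732 in Acute-7d, and 321 and 335 in T_Dysf. Its T_Dysf libraries were below every other library, and Acute-2d replicate 2 stood far above replicate 1. Slc16a3 had the largest falls of the called members, -2.28 ± 0.345 (limma adjusted p = 0.0256) against Acute-7d and -3.49 ± 0.345 (limma adjusted p = 0.00770) against Acute-2d. Slc16a1 had 1814 and 2781 normalized counts in Effector, 1092 and 982 in Acute-2d, 706 and 831 in Acute-7d, and 463 and 464 in T_Dysf. The 4 conditions did not overlap, with Effector highest, then Acute-2d, Acute-7d and T_Dysf. Slc16a1 rose in Effector against Acute-7d (1.55 ± 0.219, limma adjusted p = 0.0207) and fell in T_Dysf against Effector (-2.27 ± 0.219, limma adjusted p = 0.00761), while T_Dysf against Acute-7d gave -0.72 ± 0.219 (limma adjusted p = 0.120). Of the per-kb total of both transporters, Slc16a1 made up between 55.8% and 62.8% in the Effector and T_Dysf libraries and between 16.4% and 33.6% in the other 4.

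At the entry of pyruvate into mitochondria, the E1 subunits of pyruvate dehydrogenase differed little. Pdhb, the beta subunit and the more abundant per kb (1246 normalized counts per kb), stood at 1755 and 2073 normalized counts in Effector, 1863 and 1749 in Acute-2d, 1774 and 1922 in Acute-7d, and 2097 and 1847 in T_Dysf. Every condition overlapped another, and the log2 fold change of T_Dysf against Acute-7d was 0.09 ± 0.112 (limma adjusted p = 0.682). Pdha1, the alpha subunit, was between 2212 and 3160.3 normalized counts, and T_Dysf against Acute-7d gave 0.06 ± 0.123 (limma adjusted p = 0.830). With a 95% interval of -0.20 to 0.38 for Pdhb and -0.25 to 0.38 for Pdha1, a fold change of 2 lay outside both intervals in this comparison.

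The kinases Pdk2 and Pdk3 phosphorylate and inhibit pyruvate dehydrogenase. Pdk3, the more abundant per kb (253 normalized counts per kb), had 672 and 892 normalized counts in Effector, 428 and 419.9 in Acute-2d, 367 and 412 in Acute-7d, and 565 and 519.5 in T_Dysf. Effector was highest, T_Dysf next and Acute-7d and Acute-2d below, with a log2 fold change of T_Dysf against Acute-7d of 0.48 ± 0.151 (limma adjusted p = 0.132). Pdk2 had 127 and 88.3 normalized counts in Effector, 367 and 409 in Acute-2d, 296 and 323 in Acute-7d, and 444 and 568 in T_Dysf. Its Effector libraries were the lowest and its T_Dysf libraries the highest, and Pdk2 rose in T_Dysf against Effector (2.24 ± 0.218, limma adjusted p = 0.00779) without being called against Acute-7d (0.70 ± 0.218, limma adjusted p = 0.128). Pdk2 made up 15.1% and 8.53% of the per-kb total of both kinases in Effector and between 42.5% and 50.7% in the other 6 libraries.

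The remaining comparisons share libraries with the comparison above. Against Acute-2d, cells with neither peptide after activation nor TGF-β1, 20 of the 35 members fell in T_Dysf (57.1%; 4.21% of all genes), and 0 were called higher by limma (3.14% of all genes), with 1 higher at an unadjusted p under 0.05 (13.6% of all genes). The median log2 fold change was -1.63, compared with 0 over all genes. By stage, 11 of 18 members from uptake to triose phosphates, 6 of 9 to pyruvate and 3 of 4 for lactate and export fell. Slc16a3 (-3.49), Tpi1 (-2.74), Eno2 (-2.61), Pgk1 (-2.55) and Pfkl (-2.51) had the largest log2 changes among the called members. Among genes that reach 50 in some library, 24 members were lower, beside 8.37% of these genes. The count of 20 was 7 without T_Dysf replicate 1, 13 without T_Dysf replicate 2, 13 without Acute-2d replicate 2 and 12 in a fit of these 2 conditions alone, where 1.51%, 5.28%, 3.45% and 2.87% of all genes were lower. Pfkl, Pfkp, Pfkfb3, Tpi1, Pgk1 and Pgam1 kept their call in all 17 settings, Slc2a3, Gapdh, Eno1, Pkm and Ldha in 16, Aldoa and Slc16a3 in 15, Hk2 and Aldoart1 in 11, Slc2a1 in 10, Slc16a1 in 9, Gpi1 and Eno2 in 8 and Pfkfb4 in 7.

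T_Dysf and Effector differed in day, in stimulation, in TGF-β1 and in the RESUB prefix, and the parts of these cannot be told apart. Effector differed in day and prefix from Acute-2d and Acute-7d too, apart from the prefix of Acute-7d replicate 1. In each comparison with Effector, the RESUB term shifts Effector by the difference between the 2 Acute-7d libraries alone. Calls lost with the term therefore do not show what the prefix did in Effector. Of the 35 members, 14 fell in T_Dysf (4.75% of all genes) and 2, Pfkfb2 and Pdk2, rose (4.47% of all genes), and the median log2 fold change was -0.87. Among genes that reach 50 in some library, 15 members were lower and 2 higher, beside 10.4% and 8.83% of these genes. By stage, the falls were in 4 of 18 members from uptake to triose phosphates (median -0.75), 7 of 9 from glyceraldehyde 3-phosphate to pyruvate (median -1.46) and 3 of 4 for lactate and export (median -2.01). Differences between the stages were not tested in this or any other comparison. Slc2a1, Hk1 and Gpi1 had log2 fold changes of 0.39, 0.02 and -0.17, and none of these 3 passed the test. By limma with all libraries, 2 members were higher and 19 lower at an unadjusted p under 0.05, beside 15.8% and 16% of all genes. The unadjusted count below stands beside these shares, which are for all libraries only. Without T_Dysf replicate 1 the count of 16 was 5, in a fit of these 2 conditions alone it was 2, and with the RESUB term limma called 0, with 17 members at an unadjusted p under 0.05. Of all genes, 9.22% were called with all libraries and 2.41%, 1.91% and 1.59% in these settings. Of the 17 settings, Tpi1 kept its call in 16, Pgk1, Ldha and Pdk2 in 15, Pfkfb2, Gapdh, Pgam1, Eno1, Eno2, Pkm and Slc16a1 in 14, Slc16a3 in 13, Aldoa and Eno3 in 12, Pfkl in 10 and Aldoart1 in 6.

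In Effector against Acute-7d, Eno2 and Slc16a1 rose (2 of 35, 5.71%; 4.18% of all genes), and Slc2a1, Pfkl, Pfkfb2 and Pdk2 fell (4 of 35; 3.88% of all genes). Among genes that reach 50 in some library, the members called were again 2 higher and 4 lower, beside 8.60% and 7.92% of these genes. The median of the members was -0.02, with -0.47 for the 18 members from uptake to triose phosphates and 0.50 for the 9 from glyceraldehyde 3-phosphate to pyruvate. Ldha (0.91), Pdk3 (0.99), Eno3 (0.78), Gapdh (0.73) and Pfkp (-0.60) passed the adjusted p by limma with a fold change under 2. With matched copies added, Gapdh (0.67) no longer passed it. At an unadjusted p under 0.05 by limma with all libraries, 11 members were higher and 9 lower, beside 15.2% and 15.1% of all genes. The unadjusted counts below stand beside these shares, which are for all libraries only. The count of 6 was 3 without Effector replicate 2, 2 without T_Dysf replicate 1 and 1 without T_Dysf replicate 2. It was 0 by limma without Acute-7d replicate 1 (12 members at an unadjusted p under 0.05), without Acute-7d replicate 2 (13), with the RESUB term (13) and in a fit of these 2 conditions alone (15). Of all genes, 8.06% were called with all libraries and, in the order of these settings, 3.25%, 2.66%, 2.60%, 1.56%, 3.34%, 3.32% and 0.638%. Pfkfb2 and Pdk2 kept their call in 12 of the 17 settings, Slc16a1 in 11, Pfkl in 9, Slc2a1 in 8 and Eno2 in 6. In this comparison the RESUB term repeats the setting without Acute-7d replicate 2 (median -0.03 in both), so these 2 settings are not separate.

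In Effector against Acute-2d, Slc2a1, Slc2a3, Pfkl, Pfkm, Pfkp, Pfkfb2, Pfkfb3 and Pdk2 fell (8 of 35; 4.48% of all genes) and Slc16a1 rose (1 of 35; 4.31% of all genes). Among genes that reach 50 in some library, 10 members were lower and 1 higher, beside 9% and 8.99% of these genes. The falls of Slc2a1 (-1.87), Pdk2 (-1.86), Slc2a3 (-1.54) and Pfkl (-1.47) were the largest on the log2 scale, and 7 of the 8 belong to uptake, phosphofructokinase or the Pfkfb enzymes. The median was -1.06 for the 18 members from uptake to triose phosphates and -0.18 for the 9 to pyruvate. With all libraries, 4 members were higher and 15 lower at an unadjusted p under 0.05 by limma, beside 15.5% and 15.8% of all genes. The unadjusted counts below stand beside these shares, which are for all libraries only. The count of 9 was 4 without Acute-2d replicate 1 and 3 without Acute-2d replicate 2, and limma called 0 with the RESUB term (11 members at an unadjusted p under 0.05) and in a fit of these 2 conditions alone (15). Of all genes, 8.78% were called with all libraries and 2.28%, 4.54%, 1.44% and 0.967% in these settings. Slc2a1 and Pfkl kept their call in 15 of the 17 settings, Pfkfb2, Pfkfb3 and Pdk2 in 13, Pfkm and Pfkp in 12, Slc2a3 in 11 and Slc16a1 in 7.

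Between Acute-7d and Acute-2d, limma called 0 of the 35 members in either direction (0.0782% of all genes higher and 0.0905% lower, 41 genes in all), with 16 members lower and 0 higher at an unadjusted p under 0.05 (4.07% and 3.24% of all genes). The median log2 fold change was -0.54, compared with 0 over all genes, and 29 members were below 0. For Tpi1 it was -0.79 and for Pgk1 -0.99. The median was -0.71 without Acute-2d replicate 1 and -0.41 without Acute-2d replicate 2. In each setting limma called 0 members, and those at an unadjusted p under 0.05 numbered 7 without Acute-2d replicate 2, 7 without Acute-7d replicate 2 and between 11 and 19 in the other settings. Of all genes, 0.169% were called with all libraries, 0.564% and 1.55% without Acute-2d replicates 1 and 2, 0.691% and 0.514% without Acute-7d replicates 1 and 2, 0.321% and 0.325% without T_Dysf replicates 1 and 2, and 0.255% and 0.251% without Effector replicates 1 and 2.

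Genes around the pathway were counted from fixed lists in T_Dysf against Acute-7d, where 3.03% of all genes were lower and 2.54% higher. Of 14 hypoxia-induced genes outside glycolysis, 5 fell and 0 were called higher by limma (12 lower and 0 higher at an unadjusted p under 0.05), with a median log2 fold change of -1.45. Their summed level was 12982 and 11208 normalized counts in Effector, 34779.7 and 48609.7 in Acute-2d, 21473 and 22293 in Acute-7d, and 10367 and 9889.8 in T_Dysf, lowest in T_Dysf and Effector and highest in Acute-2d. Ankrd37 (-3.11), Egln3 (-2.93), P4ha1 (-1.80) and Bnip3 (-1.46) had the largest log2 changes among those called. Effector was also low in this list, with 7 of 14 lower against Acute-7d (3.88% of all genes) and a median of -1.44. Whether these genes and the glycolysis members share a cause was not tested.

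Of 10 other genes of pyruvate entry, Pdk1, a further kinase of pyruvate dehydrogenase, fell by 2.70 on the log2 scale and Pcx, pyruvate carboxylase, rose by 1.58. Pdk1 stood at 2453 and 2018 normalized counts in Effector, 9586 and 11050.0 in Acute-2d, 5383 and 5629 in Acute-7d, and 915 and 786 in T_Dysf. Its order of conditions, with Acute-2d and Acute-7d above Effector and T_Dysf, was unlike that of Pdk2 and Pdk3. Of 8 genes of the pentose phosphate pathway, Rpe (1.24) and Taldo1 (1.02) rose and none was called lower by limma (0 at an unadjusted p under 0.05), with a median of 0.31. Gpd2 of the glycerol 3-phosphate shuttle (1 of 8) rose by 1.19, and Pgm1 of the glycogen and hexosamine branches (1 of 10) fell by 1.06. Of 19 regulators, Myc (-1.69) and Egln1 (-1.11) fell. Limma called 0 of 5 genes of the serine branch (1 higher at an unadjusted p under 0.05), 0 of 5 of gluconeogenesis (2 higher and 1 lower) and 0 of 8 proliferation genes (7 higher, median 1.97). Of 9 other isoforms and transporters, 1 fell, Slc16a7, whose levels were low.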

How the data were processed

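The values are signal in normalized counts as deposited by the authors: reads were aligned with STAR to mm10, assigned to RefSeq transcripts in Partek Flow and divided by DESeq2 median-ratio size factors, as the authors state. The filter in their methods (maximum under 50) was not applied in the table, which had 24303 genes and 0 columns of other samples. Divided by the worth of 1 read, between 53.0% and 73.7% of values were whole numbers (tolerance 0.02 reads). The others are fractional estimates, so count models were not fitted.

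Values were fitted with limma 3.58.1 (R 4.3.3) as log2(normalized count + 1) with 4 condition means and an intensity trend. An exact permutation of 2 against 2 libraries cannot go below p = 0.333 and was not used. Levels and lists were computed in Python 3.11.15 (pandas 2.3.3, numpy 2.4.6) and drawn by matplotlib 3.10.9. Copies were matched with blastn 2.17.0 (minimum 85% identity over 50% of the copy's transcript) among GENCODE vM21 transcripts, which also gave exon lengths, and 3 copies (Gapdh-ps16, Ldha-ps3 and Ldhb-ps) were added by name. Promoters came from RefSeq, and both references are on GRCm38.p6.

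Members and gene lists were chosen with earlier results of these data known. The rule for named genes and all alternatives except matched copies and no fold change minimum were fixed before the values given here were examined. Those earlier results were known by then. By that rule, per-library values are given for the most abundant member of each step per kb, for members called in T_Dysf against Acute-7d and for those whose direction there differs from other isoforms of their step, and at most 4 called genes are named per other list. Slc2a1, Hk2, Slc16a1, Pdk2, Eno2 and Aldoc fell outside it and were chosen after their values were seen, as was Pdk1.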

Additional observations from a re-analysis of the deposited data

How the results depend on the processing

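Of the 17 alternative settings, 8 left out a library each, and a condition left with 1 library was assumed to vary like the others. The count called and the median log2 fold change ranged, without 1 library, from 2 to 12 and -1.04 to -0.90 (T_Dysf against Acute-7d), 7 to 21 and -1.86 to -1.41 (T_Dysf against Acute-2d), 5 to 15 and -0.96 to -0.82 (T_Dysf against Effector), 0 to 6 and -0.15 to 0.12 (Effector against Acute-7d), and 3 to 10 and -0.76 to -0.34 (Effector against Acute-2d). For Acute-7d against Acute-2d the median ranged from -0.71 to -0.41. With the RESUB term, limma called 2 members in T_Dysf against Acute-7d (median -0.97), 0 against Effector (17 at an unadjusted p under 0.05, median -0.94), and 0 in Effector against Acute-7d (13) and Acute-2d (11, median -0.59). In fits of 2 conditions alone it called 12 (T_Dysf against Acute-2d), 2 (T_Dysf against Effector), 0 (Effector against Acute-7d, 15 unadjusted) and 0 (Effector against Acute-2d, 15 unadjusted). These fits had fewer libraries. The RESUB term rested on the difference between the Acute-7d libraries alone, so in comparisons with Acute-7d it was not separate from leaving out 1 Acute-7d library. With all libraries, 15.8% of all genes were higher and 16% lower at an unadjusted p under 0.05 in T_Dysf against Effector. The shares were 15.2% and 15.1% in Effector against Acute-7d, and 15.5% and 15.8% in Effector against Acute-2d.

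Scaling to equal 75th percentiles, which moved the median of all genes by at most 0.07, gave medians of -0.98 (T_Dysf against Acute-7d), -0.12 (Effector against Acute-7d) and -0.55 (Effector against Acute-2d). A pseudocount of 10 gave -1.52 for T_Dysf against Acute-2d. Adding named copies or, chosen after seeing the data, matched copies gave -0.10 each for Effector against Acute-7d, where dropping the fold change minimum, also chosen after seeing the data, gave 11 called. The causes were not tested. No called member changed direction in these settings. Signs of members not called did change, and the median of Effector against Acute-7d, -0.02 with all libraries, lay on either side of 0.

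With replicate number as a replicate block, limma called 8, 14, 15, 0, 4 and 8 members, in the order T_Dysf against Acute-7d, against Acute-2d and against Effector, Acute-7d against Acute-2d, and Effector against Acute-7d and against Acute-2d, beside 3.67%, 5.53%, 7.23%, 0.119%, 5.89% and 6.36% of all genes (5.57%, 7.35%, 9.22%, 0.169%, 8.06% and 8.78% without the block). Over all 24303 genes, those with low counts included, correlations of replicate differences between conditions ran from -0.028 to 0.118, with 1 of 6 over 0.1. Counting noise in low genes draws such correlations toward 0, so they cannot show that replicates were unpaired. The main fit did not take replicates as paired.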
